A study of Mus musculus with 12 samples.

Results

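The H3K27ac peaks of 2 mouse melanoma cell lines were compared, Kmt2d mutant line 493 and Kmt2d WT line 971. The members were every peak of the 2 deposited H3K27ac lists on chromosomes 1 to 19 and X, 26414 in the WT and 18749 in the mutant line. Together they made 45163 of the 134015 peaks in the study's 8 lists, and 3 peaks of each list on other sequences were left out. The study asked what loss of KMT2D does to histone marks in melanoma, by ChIP-seq of H3K4me1, H3K4me3, H3K27ac and H3K27me3. Both lines were grown in DMEM/F12 medium with serum and antibiotics, the H3K27ac antibody was Abcam ab4729, and each line had its own input library for this mark. The labels give no age, strain or driver, do not say how the Kmt2d mutation was made, and give 1 mutant and 1 WT line, with 1 library each. A difference between the genotypes, between the 2 lines and between the 2 libraries therefore cannot be told apart, and no comparison below has a replicate check. Intervals in parentheses are 95% Wilson intervals and cover counting error only.

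H3K27ac, acetylation of lysine 27 of histone H3, is laid down by the acetyltransferases p300 and CBP and removed by histone deacetylases. It marks nucleosomes beside active promoters and enhancers, and the same lysine carries H3K27me3 at genes silenced by Polycomb. KMT2D is a methyltransferase of the COMPASS family that places H3K4me1 at enhancers, where its complex works together with p300 and with the H3K27 demethylase KDM6A. In the melanocyte lineage, MITF and SOX10 drive pigment genes, and undifferentiated melanoma cells tend to use AP-1 and TEAD factors instead.

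The 6 promoters printed here show the sites on which the comparison turns: a pair where both lines had a summit, a pair with a summit in the WT line alone and a pair with one in the mutant line alone. Each sequence is the 250 bases before the annotated start, 5′ to 3′ on the gene's strand, from RefSeq (GRCm38.p6), and the summit lies within it. Capitals mark matches, on either strand, to 8 motifs: CCAAT box (CCAAT), GC box (GGGCGG), ETS site (CGGAAG), CRE (TGACGTCA), AP-1 site (TGANTCA), E-box (CACGTG), M-box core (CATGTG) and TATA box (TATAAA). None of these motifs contains another.
Wdr34: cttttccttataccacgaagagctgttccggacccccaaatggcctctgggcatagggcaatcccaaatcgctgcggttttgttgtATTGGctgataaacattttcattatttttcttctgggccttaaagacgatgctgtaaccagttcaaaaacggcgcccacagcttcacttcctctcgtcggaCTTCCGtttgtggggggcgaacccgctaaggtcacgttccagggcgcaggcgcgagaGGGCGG
Rps26: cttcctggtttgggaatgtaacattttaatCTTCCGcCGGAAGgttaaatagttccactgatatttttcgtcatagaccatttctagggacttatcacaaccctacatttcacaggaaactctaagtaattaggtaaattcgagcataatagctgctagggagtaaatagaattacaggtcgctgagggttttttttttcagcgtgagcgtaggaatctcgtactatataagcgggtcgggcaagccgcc
Rita1: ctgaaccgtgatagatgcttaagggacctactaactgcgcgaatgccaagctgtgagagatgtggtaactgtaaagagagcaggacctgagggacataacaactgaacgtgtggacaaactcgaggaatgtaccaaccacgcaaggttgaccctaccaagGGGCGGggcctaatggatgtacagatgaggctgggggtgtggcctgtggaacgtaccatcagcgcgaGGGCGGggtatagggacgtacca
Mageb3: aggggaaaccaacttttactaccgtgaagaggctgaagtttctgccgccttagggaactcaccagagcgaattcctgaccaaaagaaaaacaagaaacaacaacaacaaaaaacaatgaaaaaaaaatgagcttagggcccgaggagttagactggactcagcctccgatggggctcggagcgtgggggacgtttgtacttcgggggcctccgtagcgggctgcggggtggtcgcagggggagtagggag
Phrf1: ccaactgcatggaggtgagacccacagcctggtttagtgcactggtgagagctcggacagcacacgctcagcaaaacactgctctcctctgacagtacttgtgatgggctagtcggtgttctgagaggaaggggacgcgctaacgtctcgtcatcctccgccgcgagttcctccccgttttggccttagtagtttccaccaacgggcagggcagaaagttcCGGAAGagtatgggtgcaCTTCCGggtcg
Farsb: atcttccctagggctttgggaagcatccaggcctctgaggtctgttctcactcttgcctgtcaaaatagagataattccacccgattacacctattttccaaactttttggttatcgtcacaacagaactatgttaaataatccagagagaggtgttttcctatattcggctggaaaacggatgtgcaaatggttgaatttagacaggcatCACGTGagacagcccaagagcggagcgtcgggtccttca

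In the first pair the lines peaked at nearly the same base. Wdr34, which encodes an intermediate chain of the ciliary dynein-2 motor, has its sequence at chr2:30048880-30049129 on the minus strand, with a WT summit 211 bp and a mutant summit 248 bp before the start. Its WT summit had an enrichment over background of 10.2-fold and its mutant summit one of 8.73-fold, both as the authors' peak caller gave them. Rps26, which encodes a protein of the small ribosomal subunit, has its sequence at chr10:128626507-128626756 on the minus strand, and there the summits lay 93 bp (WT, 8.32-fold) and 124 bp (mutant, 8.35-fold) before the start. The ETS matches of Rps26 form a back-to-back pair, and Wdr34 carries 1 match each to the CCAAT box, the GC box and the ETS site.

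The other 4 promoters had a summit in 1 line alone, with none of the other line within 2.5 kb of the start. Rita1, whose product binds the Notch pathway factor RBPJ, has its sequence at chr5:120612590-120612839 on the minus strand, with a WT summit 177 bp before the start (10.5-fold) and the nearest mutant summit 7034 bp from the start. Mageb3, of the MAGE family, has its sequence at chr2:121956093-121956342 on the minus strand, with a WT summit 52 bp before the start (10.1-fold) and no motif match. Phrf1, a PHD and RING finger protein, has its sequence at chr7:141228538-141228787 on the plus strand, with a mutant summit 151 bp before the start (11.7-fold), the strongest of the promoters with a summit in the mutant line alone by −log10 p. Farsb, a subunit of phenylalanine-tRNA synthetase, has its sequence at chr1:78488898-78489147 on the minus strand, with a mutant summit 143 bp before the start (8.33-fold). All 6 promoters lay within H3K4me3 peaks of both lines.

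Kmt2d itself (chromosome 15, 98831669 to 98874077) does not check the labels, since a mutated gene can keep its promoter. Within 20 kb of the gene each line had 2 H3K27ac summits. Those of the WT line lay at 98871725, 520 bp before an annotated start, with an 8.09-fold enrichment, and at 98880594 outside the gene, with 8.27-fold. The summits of the mutant line lay at 98831028, 0.641 kb beyond the other end of the gene, with 7.63-fold, and at 98880737, with 4.79-fold. The outer summits of the lines were 143 bp apart, so the site beyond the start was marked in both lines, while the summit at the start was in the WT list alone. All 4 summits lay in H3K4me3 of both lines.

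The fold and p-value of each peak together give the number of ChIP fragments piled up at its summit and the background it was tested against, and a whole number of fragments solved both values for 100% of the peaks of each list. The smallest background, which applies where no local region was richer, was 0.309 fragments per base in the WT and 0.316 in the mutant line, and the median background was 0.607 and 0.481. These values depend on depth and fragment length, neither of which is given in the sources used here. The peaks were shallow: the median summit held 8 fragments in the WT line (4 to 26) and 7 in the mutant line (4 to 24), and the authors' enrichment had medians of 5.25-fold and 5.16-fold. Whether a weak site was called in a line was thus a matter of a few fragments.

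The mutant line's shorter list was short of high summits. There were 71.0 mutant peaks (69.7 to 72.3) per 100 WT peaks, 62.8 (60.5 to 65.1) at promoters and 74.2 (72.6 to 75.8) elsewhere. A peak counted as promoter when its summit lay within 1 kb of the annotated start of a protein-coding gene, or of either gene end for the 4357 of 21631 genes without a start entry. Among peaks with 4 to 5 fragments the mutant line had 104.1 peaks per 100 WT peaks, and this ratio was smaller at each higher step, with 84.8 at 6 to 7, 62.4 at 8 to 9, 45.9 at 10 to 12 and 38.6 at 13 or more. Summits of 10 or more fragments made up 25.7% of the WT list (6789 peaks) and 15.9% of the mutant list (2990 peaks). The order of the 5 ratios was the same without chromosomes 10 and 19, where they ran from 100.3 to 34.5.

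**Figure D1:**
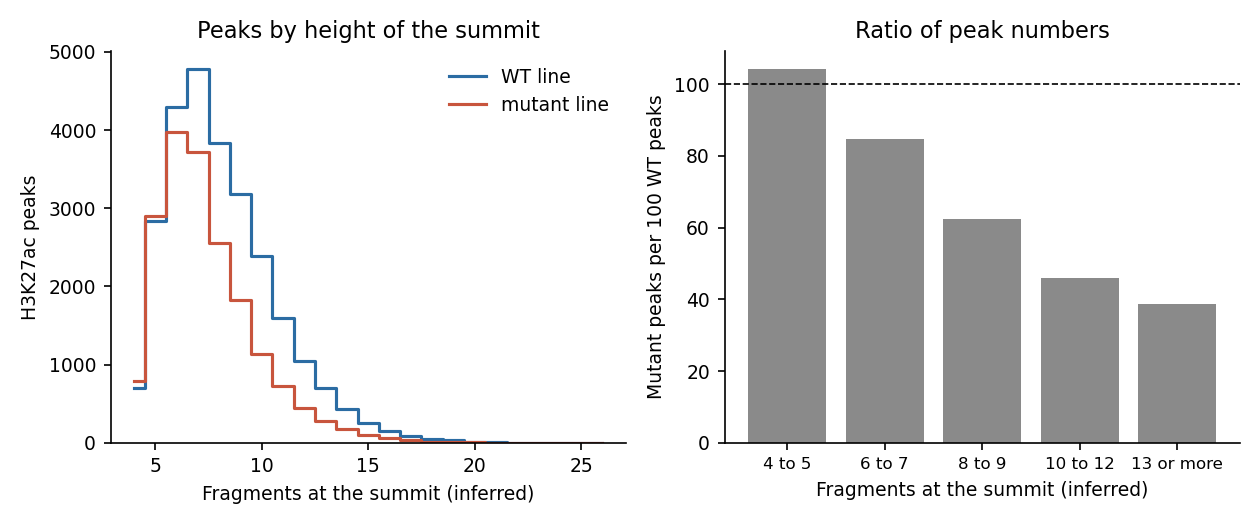
Left, number of H3K27ac peaks (y axis) by the inferred number of ChIP fragments at the summit (x axis), WT line in blue and mutant line in red. Right, mutant peaks per 100 WT peaks (bars) by fragments at the summit, with a dashed line at 100; the ratio is 104.1 at 4 to 5 fragments and 38.6 at 13 or more.

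Few summits of the lines coincided, and the share grew steadily with the distance allowed. A mutant summit lay within 50 bp of 3.54% of the WT summits, within 200 bp of 10.8% (10.4% to 11.1%), within 1 kb of 28.4% and within 10 kb of 51.5%. By comparison, 0.292% of the bases spanned by the summits lay within 200 bp of a mutant summit, 1.36% within 1 kb and 11.3% within 10 kb. Of the mutant summits, 15.1% (14.6% to 15.6%) had a WT summit within 200 bp and 36.8% had one within 1 kb. Promoter summits matched more often than distal ones: 18.3% against 7.87% of WT summits had a mutant summit within 200 bp, and 29.0% against 10.6% of mutant summits had a WT summit. At 1 kb, 62.6% of the mutant promoter summits had a WT summit, compared with 28.4% of the distal ones.

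**Figure D2:**
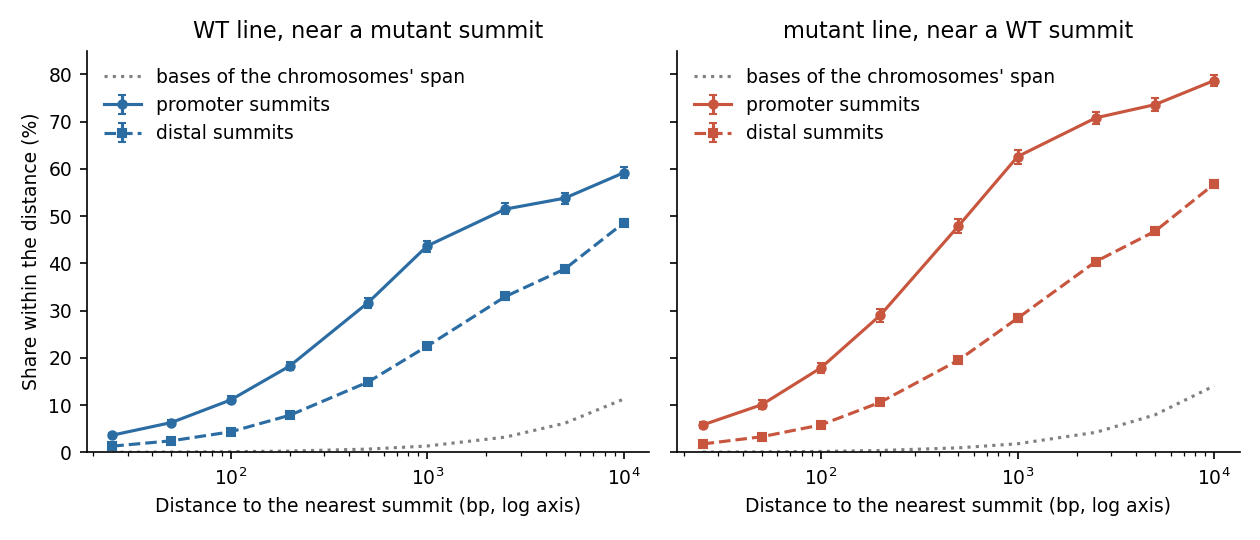
Share of summits (y axis, %) with a summit of the other line within a given distance (x axis, bp, log scale), for promoter summits (solid, circles) and distal summits (dashed, squares), with 95% Wilson intervals as bars; the dotted line is the share of the chromosomes' span that lies so near a summit of the other line. At 1 kb, 43.7% of WT and 62.6% of mutant promoter summits are matched, against 22.5% and 28.4% of distal ones.

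High summits were matched more often than low ones. Within 1 kb, a mutant summit was found for 11.3% of the WT summits with 4 to 5 fragments and for 48.2% (45.9% to 50.6%) of those with 13 or more. In the other direction the shares were 16.2% and 62.9% (59.2% to 66.4%). The increase was also present among distal summits alone, from 8.06% to 45.3% of WT and from 10.0% to 60.7% of mutant summits. At each step a larger share of the mutant than of the WT summits was matched, and the WT list is the longer one. Within 200 bp, 2844 WT and 2829 mutant summits were matched over all heights. With the WT list cut to the length of the mutant list, these shares were 12.6% and 12.5%.

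Where the lines did meet, the WT summit was usually the higher. Of 2795 pairs of summits that were each other's nearest within 200 bp, the WT summit held more fragments in 56.4%, the mutant summit in 29.3%, and the numbers were equal in 14.3%. The medians were 9 and 8 fragments, and the median distance was 81 bp. Across these pairs, which are sites and not replicates, the fragments of the lines correlated with a Spearman rho of 0.38 and a Pearson r of 0.40, with 0.27 and 0.31 for the 1315 promoter pairs and 0.46 for both measures in the 1480 distal pairs.

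Over longer distances the 2 maps resembled each other closely. Across 2568 windows of 1 Mb, empty ones included, the number of summits correlated with a Pearson r of 0.84 and a Spearman rho of 0.88, and across 25534 windows of 100 kb with 0.65 and 0.66. The windows share gene density and the depth of the 2 libraries, so these values are a description. Matched shares rise with distance by construction: 10.8% of WT summits had a mutant summit within 200 bp and 51.5% within 10 kb. The shares of spanned bases that near a mutant summit were 0.292% and 11.3%.

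Around starts the 2 lines had profiles of the same shape. Of the 6094 WT summits within 1 kb of an annotated start, 68.0% (66.8% to 69.1%) lay after the start, as did 66.8% (65.3% to 68.3%) of 3828 mutant summits. The fullest 50-bp bin ran from 200 to 250 bp after the start in the WT line (358 summits) and from 150 to 200 bp in the mutant line (231 summits), with a lower mode 300 bp or so before it. Just before the start there was a gap, with 158 WT and 64 mutant summits in the last 100 bp, compared with 1382 and 836 from 100 to 300 bp after it. Both lines thus showed the gap at the start and a mode on either side of it.

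**Figure D3:**
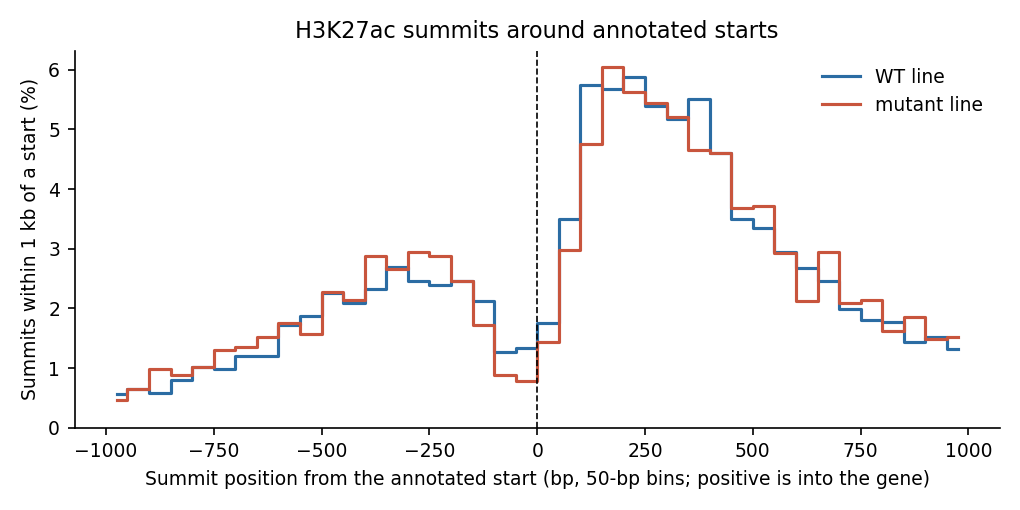
Share of the summits within 1 kb of a start (y axis, %) by position from the annotated start (x axis, bp, in bins of 50 bp, positive into the gene), WT line in blue and mutant line in red. Both lines show a gap just before the start, a main mode 150 to 250 bp after it and a lower mode before it.

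By gene, a promoter summit in the WT line alone was more common than one in both lines. Of 21631 protein-coding genes, 13.0% (2815) had a summit in both lines, 16.3% (3519) in the WT line alone, 6.98% (1509) in the mutant line alone and 63.7% (13788) in neither. With WT peaks limited to the 18749 most significant, so that the lists were of equal length, 2791 genes had a summit in the WT line alone and 1912 in the mutant line alone. That cut left no WT summit below 6 fragments, while the mutant list kept its 3692 peaks of 4 or 5 fragments. The thresholds of the lists thus differ in every count from lists of equal length. Genes that share a promoter were counted each. Of the 2815 genes, 44 (1.56%) had the summits of the lines near different starts or ends of the gene and at no common one.

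Promoters with H3K27ac in 1 line alone nearly all carried H3K4me3, the mark of active promoters, in both lines. H3K4me3 peaks of both lines lay at 95.8% of the promoters with a summit in both lines, 92.0% (91.0% to 92.8%) of those with one in the WT line alone and 88.3% (86.5% to 89.8%) of those with one in the mutant line alone, against 31.8% of those with neither. Seen from the other side, of the 11656 promoters with H3K4me3 in both lines, 23.1% had H3K27ac in both, 27.8% in the WT line alone, 11.4% in the mutant line alone and 37.7% in neither. A set of 331 genes had promoter H3K4me3 in the WT line alone, and 44 of these had H3K27ac in the WT line alone while 23 had it in the mutant line alone. Of the 421 genes with promoter H3K4me3 in the mutant line alone, these numbers were 22 and 25. Over all genes they were 3519 and 1509. Few summits lay inside a WT H3K27me3 region, 17 of 26414 in the WT line (0.0644%) and 23 of 18749 in the mutant line (0.123%). The share of bases in such regions, needed as a background, was not computed. WT H3K27me3 lay at 0.178% of promoters with H3K27ac in both lines and at 6.64% of those with it in neither. At promoters of the WT line alone and of the mutant line alone it lay at 0.540% and 0.530%. No summit of either line lay in the mutant H3K27me3 list, of 1300 regions called higher than in the WT line. For these counts of 0 the upper 95% Wilson bounds are 0.0145% and 0.0205%.

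A WT promoter summit with no mutant summit within 2.5 kb of the start was found at 3120 genes, and the 8 strongest such sites had 14 to 21 fragments. The spliceosome gene Crnkl1 and its divergent neighbour Cfap61 shared a summit with an 11.8-fold enrichment and 15 fragments. Taf15, an RNA-binding protein of the FET family, had 19 fragments and 10.9-fold, and the ubiquitin gene Ubb had 21 fragments and 10.2-fold. The other promoters chosen by the same rule were those of Zfp945 (11.0-fold), the helicase gene Ddx54 together with Rita1 (10.5-fold), the COPI coat gene Copb2 (10.7-fold), the RNA exosome gene Exosc10 (10.4-fold) and Ankrd26 (10.5-fold). All 8 sites had H3K4me3 in both lines.

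The mutant line had 1239 such genes, and its 8 strongest sites had 12 to 17 fragments. Phrf1 and Gm51460 shared the summit printed above, with 17 fragments and 11.7-fold. Srp9, of the signal recognition particle, had 13 fragments and 10.1-fold, and the summit shared by the ribosomal protein gene Fau and the mitochondrial ribosomal gene Mrpl49 had 16 fragments and 9.21-fold. The remaining promoters were those of Fam204a (10.0-fold), H3c13 (9.01-fold), Atxn1l (9.45-fold), Fam122a (9.19-fold) and the citrate synthase gene Cs (9.11-fold). Reads of H3c13, one of many near-identical histone H3 genes, may be shared among copies. Fam204a, Fau and Fam122a are on chromosome 19 and Cs is on chromosome 10, whose mutant counts stood apart as described below. All 8 sites had H3K4me3 in both lines.

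Among promoters where the lines agreed to within 200 bp, the strongest besides Wdr34 and Rps26 were those of Zfp69 (13 fragments in the WT and 14 in the mutant line), Patj (11 and 12), a scaffold of epithelial polarity, and Dcaf12 (15 and 13), a substrate receptor of a ubiquitin ligase. Tm2d1 (11 and 11), the minor spliceosome gene Snrnp35 (16 and 14) and the Rac exchange factor gene Arhgef7 (12 and 15) completed the 8. At Dcaf12 the summits were 6 bp apart. In all 8 the numbers of fragments differed by 3 or fewer, although the choice by the smaller of the 2 p-values favours such sites.

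The strongest shared distal site lay 3.04 kb from the nearest protein-coding gene, Frmd8, and 2.45 kb from an end of Neat1, the long noncoding RNA of paraspeckles, with 23 WT and 22 mutant fragments and summits 21 bp apart. It lay in H3K4me3 of both lines. The next were within Fchsd2 (16 and 14 fragments), within Pkd2l1 (13 and 12), near Rcl1 (13 and 13), near Fam25c (17 and 17) and within Wdr59 (20 and 16). The last lay 39.3 kb from Arntl, which encodes the clock factor BMAL1 (16 and 17), and 6.16 kb from Trib3, a stress-response pseudokinase gene (15 and 15). The sites at Frmd8, Pkd2l1 and Rcl1 are on chromosome 19. Of the 8 sites, 5 had no H3K4me3 and 6 had no H3K4me1 in either line. Distal sites include the starts of noncoding genes: 9.79% of the matched WT distal summits and 5.87% of those over 2.5 kb from any mutant summit lay within 1 kb of a noncoding gene's end.

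Distal summits shared by the lines lay in H3K4me3 more often than those of 1 line. Of 1501 distal WT summits with a mutant summit within 200 bp, 36.0% (33.6% to 38.4%) were inside a WT H3K4me3 peak, against 16.3% (15.6% to 16.9%) of the 12775 over 2.5 kb from any mutant summit. The mutant shares of mutant H3K4me3 were 27.1% (24.9% to 29.5%) and 9.38% (8.77% to 10.0%). The shared summits were also higher, with medians of 9 (WT) and 8 (mutant) fragments, while the unmatched had 7 and 6, and the gap was narrower among the highest summits. Among WT summits with 13 or more fragments the shares were 45.8% (39.6% to 52.1%) and 32.1% (27.9% to 36.6%). Among mutant summits they were 26.8% (22.4% to 31.7%) and 23.6% (19.9% to 27.6%) at 10 to 12 fragments and 39.5% (31.4% to 48.3%) and 28.0% (19.9% to 37.8%) at 13 or more, and these mutant intervals overlap. For H3K4me1, the mark KMT2D places, the order was not the same at every height. Over all distal WT summits 11.5% (9.95% to 13.2%) of the matched and 8.45% (7.98% to 8.95%) of the unmatched ones were inside a WT H3K4me1 peak. Among those with 13 or more fragments, the matched share was 16.8% (12.6% to 22.1%) and the unmatched one 23.2% (19.5% to 27.4%), and these intervals overlap. Mutant distal summits rarely lay in mutant H3K4me1, with 3.89% of the matched and 1.14% of the unmatched ones, from a mutant H3K4me1 list of 3649 peaks against 17373 in the WT line.

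Joining summits within 1 kb of each other gave 33691 regions, of which 17.4% (17.0% to 17.8%) held summits of both lines, 49.5% of the WT line alone and 33.0% of the mutant line alone. Regions of 1 summit, which cannot be shared, were 25625 of them. Among the fullest were a region 41.5 kb from the integrin gene Itga4 (5 WT and 3 mutant summits), one within Prrx1, a mesenchymal homeobox gene (5 and 2), and one 0.269 kb from Phlda1, a growth factor response gene (4 and 3). A region within Il1rap, the interleukin-1 co-receptor gene, had 4 WT summits and no mutant one, and one within Kctd14 had 4 mutant summits and no WT one.

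Counted within each gene and 20 kb to either side, 38.7% of protein-coding genes (8370) had fewer summits in the mutant line, 15.6% (3366) had more and 9895 had as many, 7251 of them with none in either line. The median difference was 0, and the mean was 1.63 summits per gene in the WT and 1.08 in the mutant line. With lists of equal length, 27.7% of genes had fewer and 22.4% more. The 8 genes with the largest deficits in the mutant line were 132.0 to 597.4 kb long. Ank3, the ankyrin-G gene, had 22 WT and 7 mutant summits, the DNA repair gene Rad51b 17 and 3, the forkhead gene Foxp1 20 and 7, and the kinase gene Sik3 15 and 2. Kcnab1 had 16 and 4, Cacna1a 16 and 5, Runx2, a transcription factor of bone and neural crest, 15 and 4, and Lrrfip1 14 and 3.

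The 8 genes with the largest excess in the mutant line were 83.0 to 1973.1 kb long. Prkg1, a cGMP-dependent kinase gene, had 9 WT and 26 mutant summits, and Npas3, a neuronal transcription factor gene, 8 and 25. Dlg2 had 6 and 16, the lipoprotein receptor gene Lrp1 5 and 15, Ahnak 7 and 16, the GDNF receptor gene Gfra1 4 and 13, and Arhgap15 3 and 12. The median mutant summit held 6.50 fragments at Prkg1, 6 at Npas3, 8 at Lrp1 and 9.50 at Ahnak, against 7 over the mutant list. Of the 25 mutant summits at Npas3, 5 lay in mutant H3K4me3. Prkg1, Ahnak and Gfra1 are on chromosome 19 and Lrp1 on chromosome 10. Without those chromosomes the next in line were Tenm4 (1 and 10), Mlip (1 and 9), Kif26b (1 and 9) and Bnc2 (0 and 8).

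Chromosome 19 and the end of chromosome 10 went against the rest of the genome. Chromosome 19 had 852 WT and 991 mutant peaks, 116.3 per 100, and chromosome 10 had 92.8 per 100, while the others ran from 61.3 (chromosome 11) to 77.8 (chromosome 3) and X had 73.8. On chromosome 10 the ratio was 73.5 before 80 Mb and 117.5 from 80 Mb on. The excess was larger at distal summits (130.4 per 100 on chromosome 19 and 125.8 on chromosome 10 from 80 Mb) than at promoters (84.8 and 95.7). H3K4me3 showed less of it, with 84.4 per 100 on chromosome 19 and 84.2 on chromosome 10 from 80 Mb, against 77.3 over the other chromosomes, among which X had 90.7, chromosome 4 81.3 and chromosome 17 80.9. The median background of mutant peaks was 0.472 fragments per base on chromosome 19, 0.454 on chromosome 10 from 80 Mb and 0.489 elsewhere, and that of WT peaks was 0.660, 0.642 and 0.607. What sets these segments apart was not tested. Without chromosomes 10 and 19 the whole list had 68.0 mutant peaks per 100 WT peaks.

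**Figure D4:**
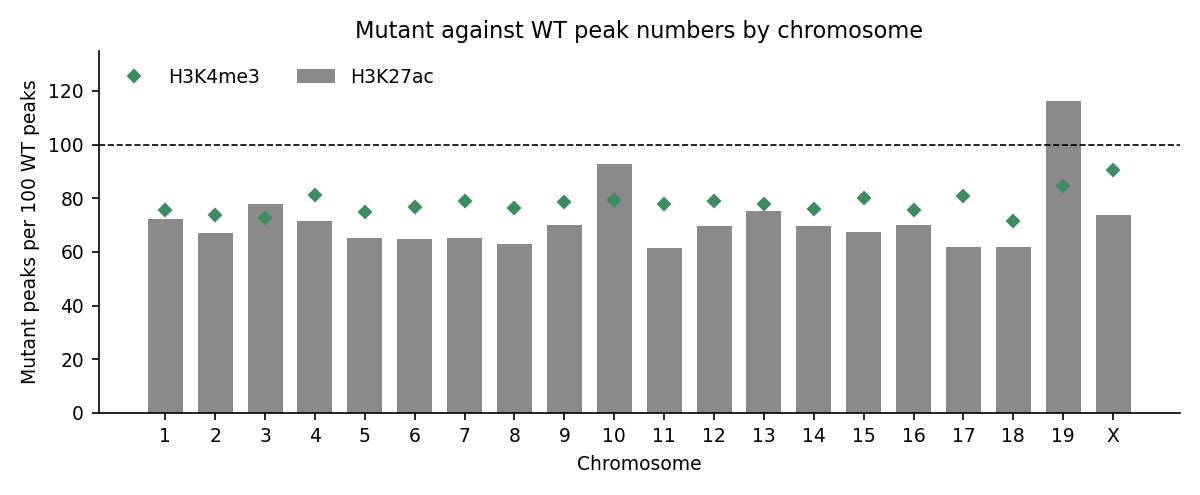
Mutant peaks per 100 WT peaks (y axis) for each chromosome (x axis), H3K27ac as grey bars and H3K4me3 as green diamonds, with a dashed line at 100. H3K27ac stands at 116.3 on chromosome 19 and 92.8 on chromosome 10, and at 61.3 to 77.8 on the others.

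Genes were also followed in 16 lists, from the labelled cell type to the acetylation machinery. Members with a promoter summit were counted for each list, as were those with fewer or more summits within 20 kb in the mutant line. Over all genes, 13.0% had a promoter summit in both lines, 16.3% in the WT line alone and 6.98% in the mutant line alone. Fewer summits within 20 kb were found at 38.7% of all genes and more at 15.6%, or 27.7% and 22.4% in lists of equal length. These shares with fewer or more include the 7251 genes with no summit within 20 kb in either line. Both are thus lower than among genes with a summit. Genes at one locus share summits within such windows. For a gene without a start entry, a promoter summit can lie at either gene end.

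**Figure D5:**
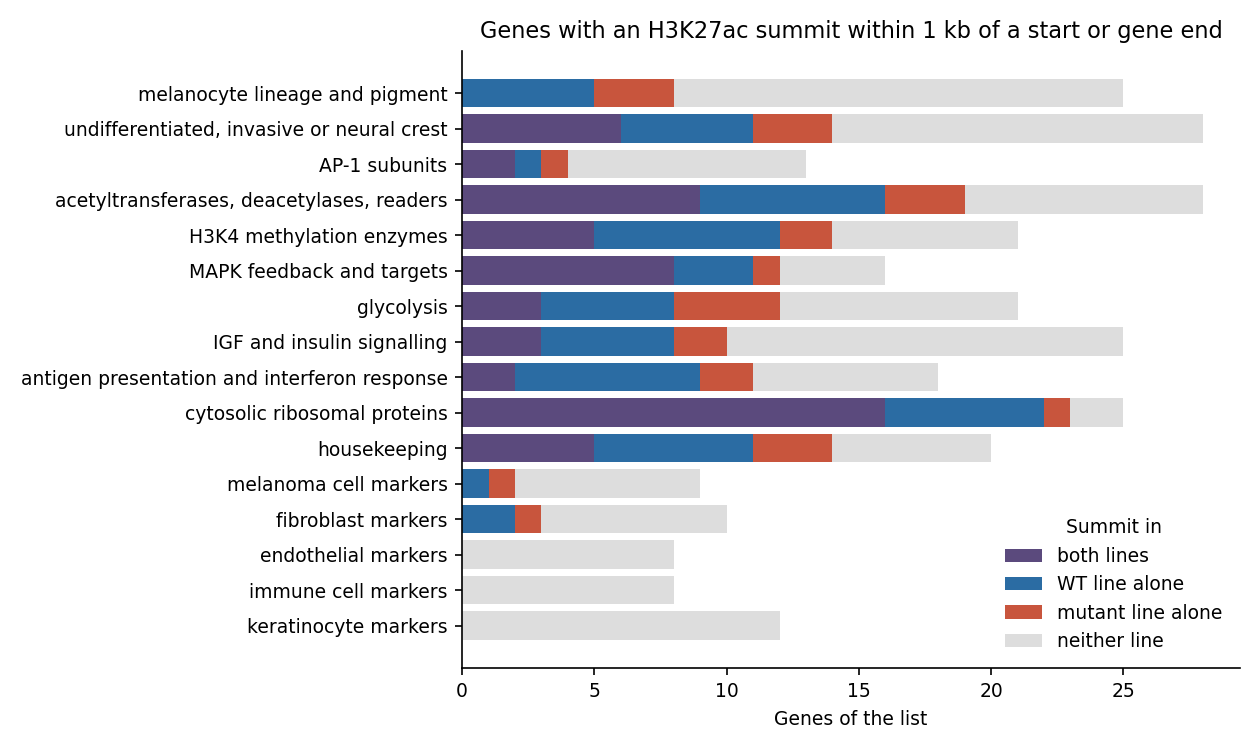
Number of genes (x axis) of each list (y axis) with a promoter H3K27ac summit in both lines (purple), in the WT line alone (blue), in the mutant line alone (red) or in neither (grey). The ribosomal protein list has 16 of 25 members marked in both lines, and the endothelial, immune and keratinocyte lists have none marked in either.

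Most of the defining melanocyte genes, like most genes, had no promoter summit. Of 9 melanoma cell markers 1 had a promoter summit in the WT line alone, Mitf, and 1 in the mutant line alone, Pmel, and Sox10, Mlana, Dct, Tyr, Tyrp1, S100b and S100a1 had none. These 7 of 9 without a promoter summit compare with 63.7% of all genes. Pmel has no start entry, and its mutant summit lay 209 bp from a gene end, which may not be its start. Mitf, the lineage's master regulator, had a WT summit of 5 fragments 163 bp after a start, while within 20 kb of the gene the mutant line had 5 summits and the WT line 1. Around Sox10 there were 2 WT summits and 1 mutant summit, and around Mlana, Dct and Tyr none in either line.

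In the melanocyte and pigment list of 25 genes, 5 had a promoter summit in the WT line alone, 3 in the mutant line alone and none in both; 8 had fewer summits nearby in the mutant line and 7 more (4 and 7 in lists of equal length). The receptor kinase gene Met had 9 WT and 2 mutant summits within 20 kb and a WT promoter summit of 9 fragments. Mlph, which tethers melanosomes to their motor, had 10 fragments at the WT promoter and no mutant summit within 20 kb. Tfap2a (13 fragments) and Lef1 (7 fragments) had a WT promoter summit, with mutant summits 1772 bp and 1164 bp from a start, just past the promoter limit. On the mutant side Gpnmb had 11 fragments, Pmel 7 and Rab38 6, and Pmel lies on chromosome 10 beyond 80 Mb. Pmel and Rab38 have no start entry, and their summits lay 209 bp and 396 bp from a gene end.

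The undifferentiated, invasive and neural crest list of 28 genes was better covered, with 6 genes marked in both lines (among them Fosl1, at opposite gene ends), 5 in the WT line alone and 3 in the mutant line alone. The EMT factor gene Zeb2 had 19 WT and 13 mutant fragments at its promoter and 12 and 7 summits within 20 kb. Nrp1 had 12 and 7 fragments and Yap1, the Hippo pathway effector, 7 and 10. In the WT line alone were Wwtr1 (11 fragments, with 14 WT and 6 mutant summits nearby), Twist1 (9), Tnc (8), Egfr (6) and Pdgfrb (9, with 3 WT and 0 mutant summits nearby). In the mutant line alone were Jun (11 fragments, with 0 WT and 3 mutant summits nearby), Sox9 (9) and Sox2 (9). Of these, Wwtr1 and Tnc had a mutant summit 1033 bp and 2143 bp from a start. Sox9, which has no start entry, had its mutant summit 156 bp from a gene end and a WT summit 2348 bp from one. Sox2 had a WT summit 2424 bp from a start. By summits within 20 kb, 12 members had fewer in the mutant line and 9 more, and in lists of equal length 9 had fewer and 13 more.

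Of 13 AP-1 subunit genes, 2 counted as marked in both lines, Maff and Fosl1, and 1 in each line alone, Atf3 in the WT and Jun in the mutant line. Fosl1, on chromosome 19, has no start entry, and its WT summit of 17 fragments lay near one gene end and its mutant summit of 9 near the other. Atf3 had 7 WT fragments and 3 WT summits within 20 kb, where the mutant line had none. In this list 6 genes had fewer summits nearby in the mutant line and 4 more, and in lists of equal length 4 had fewer and 5 more.

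Genes for the enzymes of H3K4 methylation had fewer summits in the mutant line at 15 of 21 members (71.4%) and more at 2 (9.52%), against 38.7% and 15.6% of all genes. No member lacked summits in both lines, unlike 7251 of the 21631 genes. The median difference of the list was -1 summit, against 0 over all genes, and with lists of equal length 11 members had fewer and 3 more. Promoters marked in the WT line alone numbered 7 and in the mutant line alone 2, with 5 in both. Besides Kmt2d those of the WT line alone were Kmt2a (9 fragments), Wdr5 (7), Dpy30 (5) and Setd1a (9), which encode methyltransferases and core subunits of COMPASS complexes, and the H3K4 demethylase genes Kdm1a (7) and Kdm5b (12). Setd1a had 4 WT and 0 mutant summits within 20 kb. The core subunit gene Rbbp5 (10 fragments) and Hcfc1 (10 fragments) had a promoter summit in the mutant line alone. Kmt2c, the closest relative of Kmt2d, was marked in both lines, with 7 WT and 5 mutant fragments, and Kdm6a with 12 and 8.

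Among 28 genes for acetyltransferases, deacetylases and readers of acetylated histones, 18 (64.3%) had fewer summits nearby in the mutant line and 5 (17.9%) more. Over all genes the shares were 38.7% and 15.6%. Only 2 members lacked summits nearby in both lines, unlike 7251 of the 21631 genes. The median difference was -1.50, and in lists of equal length 13 had fewer and 8 more. The promoter of Ep300, which encodes p300, was marked in both lines with 15 WT and 10 mutant fragments, and that of Crebbp, which encodes CBP, in the WT line alone with 10 fragments and a mutant summit 1010 bp from a start. Also in the WT line alone were Kat6b (9 fragments), Hdac2 (9), Hdac4 (9, with a mutant summit 1043 bp from a start), Hdac5 (8), Hdac11 (4) and Sirt3 (8). Kat6a (7) and Hdac7 (8) were among the promoters marked in the mutant line alone. The list had 9 promoters marked in both lines, among them Kat7, Kat8, Hdac1 and Brd2.

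Of 18 antigen presentation and interferon genes, 7 promoters were marked in the WT line alone, 2 in the mutant line alone and 2 in both. Nlrc5, the transactivator of MHC class I genes, had 11 WT fragments at its promoter and 7 WT summits within 20 kb, with no mutant summit. The peptide transporter genes Tap1 and Tap2 (5 fragments each), B2m (12), Irf7 (7) and Irf9 (9) were also of the WT line. H2-D1 (7 fragments) and Ifit3 (7 fragments, on chromosome 19 and outside H3K4me3) had a mutant summit alone. Cd274, which encodes the checkpoint ligand PD-L1 and lies on chromosome 19, was marked in both lines with 6 WT and 11 mutant fragments. By summits within 20 kb 10 (55.6%) had fewer in the mutant line and 5 (27.8%) more, against 38.7% and 15.6% of all genes. Tap1, Tap2, Psmb8 and Psmb9, all among the 10, lie together on chromosome 17 and share the same 2 WT summits of 5 fragments. Of the 5 with more, 3 are on chromosomes 10 and 19. In lists of equal length 6 had fewer and 6 more.

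MAPK feedback genes were marked in both lines at 8 of 16 members, against 13.0% of all genes and 23.1% of genes with promoter H3K4me3 in both lines. Another 3 were marked in the WT line alone and 1 in the mutant line alone. Spry2 had 11 WT and 14 mutant fragments, Spred1 12 and 11, Ier3 12 and 12, Phlda1 14 and 16, Myc 12 and 10, and Ccnd1 14 and 11, with Phlda1 on chromosome 10 beyond 80 Mb. The phosphatase genes Dusp4 (13 fragments) and Dusp6 (12) and the immediate early gene Egr1 (7) were marked in the WT line alone, with a mutant summit within 1 to 5 kb in each case. Etv1, an ETS factor gene, had 13 mutant fragments and no WT promoter summit. In this list 8 genes had fewer summits nearby in the mutant line and 6 more, and in lists of equal length 6 had fewer and 7 more.

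Glycolysis genes were split evenly, with 9 of 21 members having fewer and 9 more summits nearby in the mutant line, and with 5 fewer and 11 more in lists of equal length. Promoters of Pfkl (6 fragments), Pfkp (9), Gapdh (8), Eno1 (8) and Eno2 (8) were marked in the WT line alone, with a mutant summit 1140 bp from a Pfkl start and another 1816 bp from an Eno1 start. Those of Hk1 (9), Gpi1 (9), Aldoa (12) and Tpi1 (10) were marked in the mutant line alone. Pfkm, Ldha and Hif1a were marked in both.

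Of 25 IGF and insulin genes, 3 promoters were marked in both lines (Insr and Pik3ca among them), 5 in the WT line alone and 2 in the mutant line alone, and 10 had fewer and 7 more summits nearby (7 and 9 in lists of equal length). The WT line alone had Irs2 (9 fragments), Igfbp6 (11, with 6 WT and 1 mutant summits nearby and no H3K4me3 at its starts in either line), Igf2bp2 (13), Pik3r1 (8) and Pik3cd (6). A mutant summit lay 1032 bp from a start of Igf2bp2. The mutant line alone had the IGF-binding protein genes Igfbp4 (6) and Igfbp7 (5). At Igfbp3, which had no promoter summit, there were 0 WT and 3 mutant summits within 20 kb.

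Ribosomal protein genes were marked in both lines at 16 of 25 members, against 13.0% of all genes and 23.1% of genes with promoter H3K4me3 in both lines. Another 6 were marked in the WT line alone and 1 in the mutant line alone. Rpl4 had 17 WT and 9 mutant fragments, Rpl5 13 and 9, Rps6 10 and 12, and Rps14 10 and 13. Rpl10a (10 fragments), Rpl13 (11), Rpl32 (7), Rplp0 (8) and Rplp2 (11) were among those marked in the WT line alone and Rps19 (12) in the mutant line alone. A mutant summit lay 1537 bp from a start of Rpl13. Within 20 kb 16 (64.0%) had fewer summits in the mutant line and 3 (12.0%) more, against 38.7% and 15.6% of all genes. In lists of equal length 12 had fewer and 3 more. Processed copies of these genes elsewhere in the genome may take part of their reads.

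Housekeeping genes were no constant background either: of 20, 5 promoters were marked in both lines, 6 in the WT line alone and 3 in the mutant line alone. Of the 20, 12 (60.0%) had fewer and 6 (30.0%) more summits nearby in the mutant line, against 38.7% and 15.6% of all genes. Hsp90ab1 had 18 WT and 7 mutant fragments. Besides genes named above, Polr2a (14 fragments, with a mutant summit 1191 bp from a start) was marked in the WT line alone. Sdha (5), Tuba1b (8) and Eef2 (9, on chromosome 10 beyond 80 Mb) were marked in the mutant line alone. In lists of equal length 7 had fewer and 7 more.

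Among markers of other cell types, only fibroblast markers had promoter summits. No promoter of the 8 endothelial, 8 immune and 12 keratinocyte markers had a summit in either line, and summits within 20 kb numbered 10 and 5, 7 and 5, and 6 and 6 in the WT and mutant lines. In these 3 lists 4, 3 and 1 genes had fewer summits in the mutant line and 1 gene each had more, and of the immune markers none had fewer and 1 more in lists of equal length. Of 10 fibroblast markers, Col1a1 and Thy1 (8 fragments each) were marked in the WT line alone and Dcn (5 fragments, on chromosome 10 beyond 80 Mb) in the mutant line alone. The 7 of 10 without a promoter summit compare with 63.7% of all genes. A mutant summit lay 1381 bp from an end of Col1a1. In this list 3 genes had fewer and 6 more summits nearby in the mutant line, among them Col6a3 with 2 WT and 7 mutant and Col3a1 with 2 and 5, and the 9 melanoma cell markers had 2 fewer and 4 more. Both are lists of a few genes, and the part of differing cell makeup in them was not tested.

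Among promoters with H3K4me3 in both lines, those with H3K27ac held an ETS site more often than those without it. To hold H3K4me3 equal, the 9535 promoters with an annotated start and H3K4me3 in both lines were compared, over 300 bases from 250 before to 50 after the most upstream start. Their median GC content was 62.0% with H3K27ac in both lines, 62.0% in the WT line alone, 61.3% in the mutant line alone and 62.3% in neither. An ETS site lay in 39.2% (37.2% to 41.3%) of the promoters marked in both lines, 35.9% (34.1% to 37.8%) in the WT line alone, 35.1% (32.3% to 37.9%) in the mutant line alone and 26.6% (25.2% to 28.1%) in neither. Over the 9535 promoters it lay in 33.2%, and over all 17274 promoters with an annotated start, whatever their H3K4me3, in 21.8%.

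In percentage points the other motifs differed less between these classes. The GC box lay in 66.2% (64.2% to 68.2%) of promoters marked in both lines and 71.2% (69.7% to 72.7%) of those in neither, and the CCAAT box in 35.0% (33.0% to 37.0%) and 40.9% (39.3% to 42.5%), so both ran against the ETS site. The CRE lay in 4.30% (3.53% to 5.22%) and 2.33% (1.88% to 2.88%), a larger difference relative to its share than that of the ETS site. The TATA box lay in 4.57% (3.77% to 5.52%) and 6.76% (5.98% to 7.64%), and these intervals do not overlap. For the AP-1 site the shares were 4.16% and 4.12%, for the E-box 10.2% and 11.0%, and for the M-box core 6.38% and 7.59%. Between promoters of the WT line alone and of the mutant line alone, the intervals of all 8 motifs overlapped, the largest gap being that of the TATA box with 6.18% (5.33% to 7.15%) and 7.72% (6.29% to 9.45%). The ETS matches printed for Rps26, Wdr34 and Phrf1 above are examples of this motif, and Rita1, Mageb3 and Farsb are examples of marked promoters without it in the bases shown.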

How the data were processed

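The authors called H3K27ac peaks with MACS2 against each line's own input on mm10 (the GRCm38 assembly), per the submitters' processing notes, which also name FastQC and MultiQC. No versions, aligner or filters are given in the sources used here. The deposited narrowPeak lists hold, for each peak, a fold enrichment at the summit, −log10 p and −log10 q values, a score (the integer display score, not used here) and an offset in bases from the peak's start to its summit. The H3K4me3, H3K4me1 and H3K27me3 lists were used by position only. The deposited files give peaks and no read counts, so the depth is unknown beyond the background inferred from the peaks.

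Summit positions were compared by distance (200 bp unless stated), over chromosomes 1 to 19 and X. The fragments at a summit were solved from fold, equal to fragments plus 1 over background plus 1, and the Poisson p, with a tolerance of 0.001. Promoters were taken within 1 kb of RefSeq starts or, for 4357 genes, of gene ends. Genes were named by rule: Kmt2d, the 8 genes per direction with the largest difference in summits within 20 kb, the 8 promoters per line with the largest −log10 p and no summit of the other line within 2.5 kb, the 8 strongest shared promoters and distal pairs by the smaller −log10 p, and list members marked in 1 line alone. Other list members and Neat1 were named after their values were seen. A few genes that these rules name are not reported here. Members and gene lists were chosen with earlier results of these data known. With 1 library per line no test was made. Scripts were tested on simulated data, in Python 3.11.15 with numpy 2.4.6, pandas 2.3.3, scipy 1.17.1 and matplotlib 3.10.9. Alternatives covered list length, threshold, matching distance, promoter distance, joining distance and chromosomes 10 and 19. Others, at least 8 fragments at the summit and genes with a start entry, were chosen after seeing the data, as were the list counts with equal lengths.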

Additional observations from a re-analysis of the deposited data

How the results depend on the processing

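Of 58 alternative values over 7 results, 26 stayed within the interval of the reported value (for counts of genes, within 1.5 times) and 32 did not. A reversal of direction was checked only for the excess of promoter over distal matching, and no alternative gave one. The other results are shares, counts or a ratio, for which no reversal was defined. No paired analysis was possible because each line had 1 library.

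The ratio of 71.0 mutant per 100 WT peaks was 68.1 at a −log10 q of at least 2, 68.0 without chromosomes 10 and 19 and 53.4 at 8 or more fragments. The share of WT summits matched (10.8%) was 3.54%, 6.24%, 19.6% and 28.4% at 50 bp, 100 bp, 500 bp and 1 kb, 8.65% by overlap of peaks, 12.6% with lists of equal length, 9.50% in the more significant 50% of each list, and 9.54% at 8 or more fragments. The share of mutant summits matched (15.1%) was 4.99%, 8.80%, 26.5% and 36.8% at these distances, 12.2% by overlap, 12.5%, 13.4% and 17.8% in the same 3 lists.

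The excess of promoter over distal matching (10.4 percentage points) was 3.87, 6.78, 16.7 and 21.2 at these distances, 9.22 by overlap, 7.41 in the more significant 50%, 5.01 at 8 or more fragments, and 11.7 and 9.10 with promoters of 500 bp and 2.5 kb. Genes marked in the mutant line alone (1509) numbered 1004 at 8 or more fragments. Regions with both lines (17.4%) were 14.4% in the more significant 50%, and 12% and 23.9% when joined at 500 bp and 2.5 kb. Distances change these values by their construction; for the others the cause was not tested. A summit of 4 to 26 fragments limits each single call, and absence of a summit is absence from a list, not of acetylation.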
